A study of Mus musculus with 480 samples.

Results

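Gene expression was compared between 2 annotated sub-types of single lung epithelial cells from 1 mouse reporter line, bronchioalveolar stem cells (BASCs) and alveolar type 2 (AT2) cells. Of 160 cells, 11 were BASCs and all others AT2 cells. Both came from Sftpc-TD mice (Sftpc-DreER;R26-RSR-tdtomato), in which a Dre recombinase driven by Sftpc switches on tdTomato. Both sub-types thus carried the same reporter. The cells were chosen by line and by the labelled sub-type, and the 160 are part of the 480 cells of the study. The other 320 cells came from BASCs-Tracer mice (Sftpc-DreER, Scgba1a1-CreER and the reporter R26-RSR-LSL-tdtomato), in which both Dre and an Scgb1a1-driven Cre must act, and from Scgb1a1-TD mice (Scgba1a1-CreER;R26-tdtomato), in which the Cre alone acts. Of these, 182 are set beside the Sftpc-TD cells below: 38 BASCs of Scgb1a1-TD, 6 AT2 cells of BASCs-Tracer and, as the rest, the BASCs of BASCs-Tracer. No age, animal or treatment schedule is named in the labels. The reporter records that Sftpc was transcribed when Dre was active, not that a cell was of 1 type at sorting.

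BASCs lie where the terminal bronchiole opens into the alveoli. They carry the secretoglobin of airway club cells, Scgb1a1, together with surfactant protein C, Sftpc, and can give rise to both airway and alveolar epithelium after injury. AT2 cells make and secrete surfactant, a mixture of phospholipid, cholesterol and surfactant proteins held in lamellar bodies. They also serve as the progenitors of the thin alveolar type 1 (AT1) cells that exchange gas. The Sftpc reporter does not ask for Scgb1a1, and the annotation set a minority of its cells apart as BASCs. The question addressed was how those cells differed from AT2 cells of the same line and plates.

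No label named an animal, so each sub-type counted as 1 sample, no test between them was possible and no difference has a replicate check. Levels are given as CPM (gene-assigned reads scaled to a common total), for single cells or for the reads of a sub-type summed over its cells. Ratios are log2 of summed CPM with 1 CPM added, BASCs over AT2 cells, and folds are on that scale. The BASCs held 12569714 reads, 149599 to 2218630 per cell, with a median of 1212915 and a median of 4639 genes with a read. The AT2 cells held 192171985 reads, 3379 to 3781974 per cell, with a median of 1114309 and a median of 4645 genes. Plate 4 held 4 BASCs and 60 AT2 cells beside 32 cells of Scgb1a1-TD, and plate 5 held 7 BASCs and 89 AT2 cells. On plate 5, 5 of the 7 BASCs lay in well columns 10 and 11. The median mitochondrial share of reads was 5.30% in BASCs and 3.95% in AT2 cells. It was 5.17% and 5.05% on plate 4, and 5.30% and 3.59% on plate 5. With each cell thinned to 100000 reads, a median of 3255 genes had a read in BASCs and 3081.5 in AT2 cells. The direction differed by plate, with 2723.5 and 3035 on plate 4, and 3522 and 3177.5 on plate 5.

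One BASC, replicate 9 on plate 5, stood apart before any comparison. It held 1928 CPM of Ptprc, the gene for the pan-leukocyte surface phosphatase CD45, whereas the other 10 BASCs held 0 and the highest AT2 cell 4.07 CPM. Its summed pan-leukocyte list was 10624 CPM, against 635 CPM in the next BASC and 1310 CPM in the highest AT2 cell. The myeloid and macrophage list summed to 10991 CPM in it and to 426 CPM in the next BASC. That sum was mostly Chil3, a chitinase-like protein of alveolar macrophages, at 8053 CPM, and Ctss, the lysosomal protease cathepsin S, at 2082 CPM. Its Sftpc level of 64715 CPM was the lowest of the BASCs, its MHC class II sum of 30823 CPM the highest of all 160 cells, and its 7262 genes the most of any of them. No T cell marker reached 5 CPM in either group. Results that this cell decides are given with and without it.

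Over the whole table, 10488 genes reached 5 CPM in either group and counted as measured. Of these 1737 (16.6%) lay 2-fold or more higher in BASCs and 3708 (35.4%) 2-fold or more lower, with a median log2 ratio of −0.33. These shares moved with the level of the genes. Among the 1489 genes with 100 CPM or more in either group, 188 (12.6%) lay higher and 8.39% lower, and the median was 0.08. The median of all measured genes was −1.20 when only the 4 BASCs and 60 AT2 cells of plate 4 were pooled and −0.54 for the 7 BASCs and 89 AT2 cells of plate 5. Low-level genes thus tended to lie lower in BASCs, more so in the smaller pools, and the counts of list members below are set beside these shares.

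AT2 markers stood at like levels in both sub-types. None of the 20 lay past 2-fold in either direction, and their median log2 ratio was −0.06. Sftpc (ENSMUSG00000022097, GRCm38 chromosome 14, 70520949 to 70524081, minus strand) ranged from 64715 to 224568 CPM over BASCs, with a median of 167635, and from 2656 to 293683 CPM over AT2 cells, with a median of 157460. The groups overlapped throughout, and the summed levels were 167394 CPM in BASCs and 160638 CPM in AT2 cells (log2 ratio 0.06). Lyz2, a lysozyme of AT2 and myeloid cells, stood at 77900 against 74599 CPM, although its near-identical neighbour Lyz1 may share reads with it. The alarmin gene Il33 had the highest ratio of the list, 1557 against 805 CPM (log2 ratio 0.95), with 5 of the 11 BASCs above the AT2 median. Etv5, a transcription factor needed to keep AT2 identity, had the lowest, 504 against 936 CPM (−0.89), and 9 of the 11 BASCs lay below or at the AT2 median. Cathepsin H, encoded by Ctsh and used to process surfactant proteins, stood at 955 against 1723 CPM (−0.85). Summed per cell, the list ran from 167868 to 468014 CPM in BASCs and from 13186 to 492078 CPM in AT2 cells, with medians of 358563 and 367641 CPM.

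Scgb1a1 (ENSMUSG00000024653, chromosome 19, 9083636 to 9087958, minus strand), which the definition of a BASC rests on, was higher in most but not all of the BASCs. In replicates 1 to 11 it stood at 12371, 113.5, 506, 742, 45101, 2531, 130015, 2918, 570, 112.7 and 3005 CPM. In AT2 cells it ran from 0 to 50094 CPM, with a median of 240 and a 90th percentile of 2180 CPM. Of the BASCs, 9 lay above the AT2 median and 6 above the 90th percentile, while replicates 2 and 10 lay below the AT2 median. The summed level was 8464 CPM in BASCs (exact Poisson 95% interval 8413 to 8515) and 1285 CPM in AT2 cells (1280 to 1290), a log2 ratio of 2.72, or 6.58-fold. Such intervals cover counting error only, since no molecular identifiers tell PCR copies apart. Replicate 7 alone held 60.5% of the BASC reads of the gene, and the ratio was 1.44 without it. The ratio was 2.12 on plate 4 and 2.95 on plate 5. The AT2 median was 332 CPM on plate 4, which also held Scgb1a1-TD wells, and 168 CPM on plate 5. Because the sub-type labels may rest on the same counts, these values describe the annotation and are no independent check of it.

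Read as shares of cells, 100 or more Scgb1a1 reads out of 100000 were found in 6 of 11 BASCs (54.5%, exact Clopper-Pearson 95% interval 23.4% to 83.3%). The same held for 33 AT2 cells, 22.3% of those deep enough to be thinned (15.9% to 29.9%), which was all but 1. At 1000 reads the shares were 3 of 11 BASCs (27.3%, 6.02% to 60.97%) and 1 AT2 cell (0.676%, 0.0171% to 3.71%). These intervals treat cells as independent draws, although no animal is named, so they are no test between the sub-types. At 10 reads they were 10 of 11 BASCs and 72.97% of AT2 cells, so that low levels of the transcript did not set the sub-types apart. The plates differed. On plate 4, 100 reads were found in 1 of 4 BASCs and 15 of 60 AT2 cells, an equal share, whereas on plate 5 they were found in 5 of 7 BASCs (71.4%) and 18 of 88 AT2 cells (20.5%). At 10 reads, plate 4 had 3 of 4 BASCs and 56 of 60 AT2 cells, and plate 5 had 7 of 7 BASCs and 52 of 88 AT2 cells. Without thinning, 100 reads were reached by 90.9% of BASCs and 72.5% of AT2 cells.

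**Figure D1:**
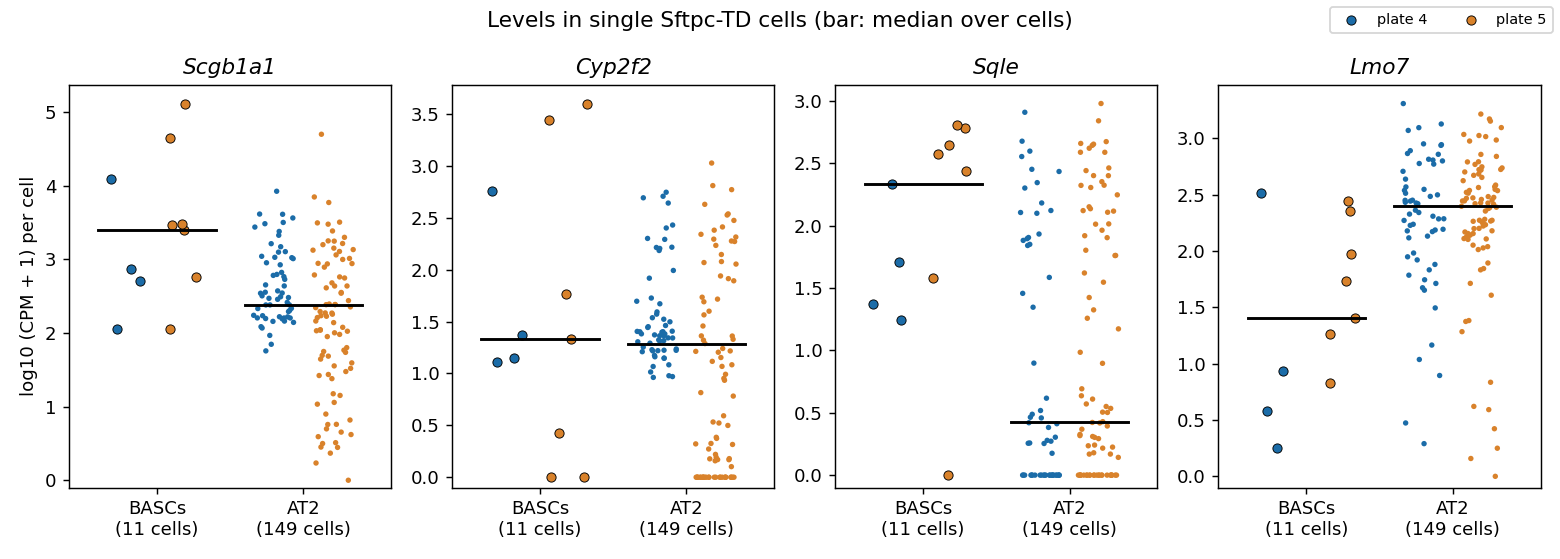
Level of Scgb1a1, Cyp2f2, Sqle and Lmo7 in each of the 11 BASCs (left in each panel) and each AT2 cell (right) of Sftpc-TD, as log10 of CPM with 1 added. Colours give the plate and bars the median over cells; for Scgb1a1 the BASCs reach 130015 CPM, for Cyp2f2 only 3 BASCs stand above 100 CPM, for Sqle the BASC median is 214 CPM against 1.68 CPM in AT2 cells, and for Lmo7 only 2 BASCs lie above the AT2 median of 248 CPM.

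The other club genes were mixed in how they followed Scgb1a1. Of 24 club markers, Scgb1a1 included, 18 were measured. Of these 7 (38.9%, against 16.6% of all genes) lay 2-fold or more higher in BASCs and 2 (11.1%, against 35.4%) lower, with a median log2 ratio of 0.32. Among the 10 with 100 CPM or more, again with Scgb1a1, 4 lay higher and 0 lower, with a median of 0.60. The sign of the first median was not stable. Over the same 18 genes it was 0.12 on plate 4 and −0.15 on plate 5, and it was −0.21 without replicate 1. It stayed above the median of all genes, which over the same 10488 genes was −1.07 on plate 4 and −0.61 on plate 5. Without replicate 1 the median of all genes was −0.43. Cyp2f2, the cytochrome P450 typical of club cells, stood at 569, 3971 and 2733 CPM in replicates 1, 5 and 7, the 3 BASCs with the most Scgb1a1, and at no more than 57.3 CPM in the other 8. Its AT2 range was 0 to 1062 CPM with a median of 18.4, and the summed levels were 231 and 69.3 CPM (log2 ratio 1.72, 0.88 without the BASC that lowers it most). Its AT2 median was 23.5 CPM on plate 4, beside the Scgb1a1-TD wells, and 5.53 CPM on plate 5, and the part of the shared plate was not tested. Scgb3a2, another club secretoglobin, was alike at 10.02 and 9.82 CPM. Muc5b, Bpifa1 and Scgb3a1, airway secretory genes, stayed below 5 CPM in both sub-types.

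Among the more abundant members, Cbr2, a carbonyl reductase of club and AT2 cells, was lower in BASCs. It ran from 3526 to 34829 CPM in BASCs with a median of 6474, and from 271 to 33021 CPM in AT2 cells with a median of 13557. Only 2 of 11 BASCs exceeded the AT2 median, and the summed levels were 7643 and 13919 CPM (log2 ratio −0.86). Without Scgb1a1, the club list summed to a median of 11140 CPM in BASCs and 16990 CPM in AT2 cells, and again 2 of 11 BASCs lay above the AT2 median. The haptoglobin gene Hp went the other way, with a median of 1380 CPM in BASCs and 649 CPM in AT2 cells and 9 of 11 BASCs above the AT2 median. Retnla, a secreted resistin-like protein, exceeded the AT2 median of 0 in 10 of 11 BASCs, but its log2 ratio of 1.49 became −0.50 when the BASC with 1264 CPM was left out. Of 6 measured genes of airway secretion and defence 3 lay higher, against 16.6% of all genes, and 2 lower, against 35.4%. The siderophore-binding lipocalin Lcn2 stood at 908 against 421 CPM and the protease inhibitor Slpi at 129.2 against 60.3 CPM. The lower members were the lysozyme gene Lyz1, described below, and Muc4, a membrane mucin gene, at 17.98 against 61.97 CPM. Muc5ac, a gel-forming mucin of goblet cells, had reads in 1 BASC, at 200 CPM, and in 1 AT2 cell, at 0.961 CPM.

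Cholesterol is made from acetyl-CoA through mevalonate and squalene, and the genes of the route are switched on together by the transcription factor SREBP-2 when cell sterol runs low. Several of these genes were higher in BASCs. Of the 20 genes on the sterol synthesis list, Sqle included, all were measured. Of these 6 lay 2-fold or more higher, against 16.6% of all genes, and 4 lower, against 35.4%. The median log2 ratio was 0.28, with 0.24 on plate 4 and −0.003 on plate 5. The same genes measured over the whole table had −1.07 and −0.61 on these plates. Among the 10 with 100 CPM or more, 5 lay higher and 0 lower, against 12.6% and 8.39% of all genes at that level. Their median was 1.15. Both counts of higher genes include Sqle, itself chosen with earlier results of these data known. Summed per cell, the list ran from 778 to 3678 CPM in BASCs with a median of 2590, and from 78.4 to 4468 CPM in AT2 cells with a median of 1194. Of the BASCs 9 lay above the AT2 median; the exceptions were replicate 7, with the most Scgb1a1, and replicate 9, with the leukocyte transcripts. All 11 BASCs lay within the range of the AT2 cells, so the list did not separate the sub-types.

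Promoters of 15 of the 20 genes were in the RefSeq table used here, each from 250 bases before to 50 after an annotated start (GRCm38.p6). They are shown because SREBP-2 acts on such promoters together with the CCAAT-binding factor NF-Y, and 3 of the genes that lay higher are given, with matches to CCAAT on either strand (CCAAT or ATTGG) and to the sterol-element-like word CACNCCAC in capitals. The regions are chr13:119690101-119690400 on the plus strand for Hmgcs1, chr13:8885356-8885655 on the plus strand for Idi1 and chr10:76531355-76531654 on the plus strand for Lss.
Hmgcs1: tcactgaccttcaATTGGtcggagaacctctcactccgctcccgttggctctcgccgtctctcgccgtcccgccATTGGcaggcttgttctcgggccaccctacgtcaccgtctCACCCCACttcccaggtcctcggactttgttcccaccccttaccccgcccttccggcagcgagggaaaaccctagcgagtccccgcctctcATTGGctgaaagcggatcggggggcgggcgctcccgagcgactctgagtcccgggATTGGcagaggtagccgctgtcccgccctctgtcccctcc
Idi1: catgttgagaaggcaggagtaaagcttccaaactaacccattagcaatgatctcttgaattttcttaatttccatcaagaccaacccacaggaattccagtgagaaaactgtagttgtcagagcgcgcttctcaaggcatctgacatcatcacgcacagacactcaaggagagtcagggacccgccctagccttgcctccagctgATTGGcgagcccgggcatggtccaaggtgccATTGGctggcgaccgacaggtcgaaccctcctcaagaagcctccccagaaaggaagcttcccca
Lss: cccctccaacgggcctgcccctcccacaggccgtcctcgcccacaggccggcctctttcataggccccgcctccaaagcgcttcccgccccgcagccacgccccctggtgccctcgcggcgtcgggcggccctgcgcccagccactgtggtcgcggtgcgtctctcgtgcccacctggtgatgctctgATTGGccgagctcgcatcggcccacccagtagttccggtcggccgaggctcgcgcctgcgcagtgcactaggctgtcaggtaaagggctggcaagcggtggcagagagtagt
The Hmgcs1 window held 4 CCAAT words and 1 sterol-element-like word, the Idi1 window 2 CCAAT words and the Lss window 1. Over the list, 14 of 15 genes (93.3%) held CCAAT, against 41.1% of the 27025 genes in the table. The 14 included Nsdhl, which lay lower in BASCs (log2 ratio −2.54), and Cyp51, which was level, so the word was not confined to genes that lay higher. Sqle had no promoter in the table. Whether the words bear on the levels was not tested. CACNCCAC was found for 2 of 15 genes (13.3%), Hmgcs1 and Acat2, against 7.12% of all genes. The words do not overlap each other, and a match is a description of the letters, not of a bound site.

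The genes are taken in the order of the route. Hmgcs1 (ENSMUSG00000093930, chromosome 13, 119690379 to 119708260, plus strand) makes HMG-CoA. It ran from 6.68 to 1176 CPM in BASCs with a median of 228, and from 0 to 1417 CPM in AT2 cells with a median of 64.2. In 10 of 11 BASCs it exceeded the AT2 median, and the summed levels were 408 and 161 CPM (log2 ratio 1.34, 1.51 on plate 4 and 1.23 on plate 5). Pmvk, phosphomevalonate kinase, stood at 345 against 133.8 CPM (1.36), with 6 of 11 BASCs above the AT2 median. Idi1, the isomerase that makes dimethylallyl diphosphate, stood at 177 against 64.8 CPM (1.43), with 9 of 11 BASCs above the AT2 median of 8.72 CPM. Fdft1, squalene synthase, was close to level at 191 and 156 CPM (0.29).

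Sqle (ENSMUSG00000022351, chromosome 15, 59315077 to 59331192, plus strand) encodes squalene epoxidase, which oxidises squalene before it is closed into the first sterol. It ran from 0 to 645 CPM in BASCs with a median of 214, and from 0 to 951 CPM in AT2 cells with a median of 1.68. A level above the AT2 median was found in 10 of 11 BASCs, the exception being replicate 7, while 4 exceeded the AT2 90th percentile of 276 CPM. The summed levels were 274 and 95.3 CPM, a log2 ratio of 1.51 (2.86-fold), which ran from 1.02 to 1.68 when each BASC was left out. The difference was unequal between plates, with a log2 ratio of 0.14 on plate 4 and 1.88 on plate 5. Lss, which closes squalene epoxide into lanosterol, stood at 171 against 67.7 CPM (1.32), and Msmo1, a C4-demethylating oxidase, at 318 against 160 CPM (0.98, just short of 2-fold). Later steps did not all lie higher, with Nsdhl at 10.3 against 64.97 CPM (−2.54) and Cyp51 at 85.6 against 85.1 CPM (0.01).

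Genes of sterol uptake and its control were mixed. Of 13 measured, 1 (7.69%, against 16.6% of all genes) lay 2-fold or more higher and 3 (23.1%, against 35.4%) lower. Their median log2 ratio was 0.18. Srebf2, which encodes SREBP-2, stood at 172 against 89.1 CPM (0.94), with 9 of 11 BASCs above its AT2 median. Insig2, which holds SREBP in the endoplasmic reticulum, was 3.42-fold higher in the pool, but its log2 ratio was −2.77 on plate 4 and 2.37 on plate 5. Of 13 measured genes of fatty acid synthesis 2 (15.4%, against 16.6% of all genes) lay higher and 1 (7.69%, against 35.4%) lower. Scd1 (chromosome 19, 44394455 to 44407879, minus strand), the desaturase that makes oleate, ran from 649 to 29450 CPM in BASCs with a median of 12694, and from 429 to 24419 CPM in AT2 cells with a median of 5406. In 8 of 11 BASCs it exceeded the AT2 median, and the summed levels were 15763 and 6799 CPM (log2 ratio 1.21, 0.85 on plate 4 and 1.41 on plate 5). The low BASCs were replicates 1, 7 and 9, at 3442, 695 and 649 CPM. Fasn, fatty acid synthase, was level at 723 and 798 CPM (−0.14), as was Acly, which supplies its acetyl-CoA, at 408 and 421 CPM. Genes of surfactant phospholipid and lamellar bodies had a median of −0.21, with 0 of 16 higher and 2 (12.5%, against 35.4% of all genes) lower.

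Lmo7 (ENSMUSG00000033060, chromosome 14, 101729957 to 101934710, plus strand) encodes a LIM-domain protein that links adherens junctions to actin, and was lower in BASCs. In replicates 1 to 11 it stood at 7.57, 325, 0.792, 2.80, 93.6, 225, 52.6, 17.1, 276, 24.5 and 5.77 CPM. In AT2 cells it ran from 0 to 2027 CPM with a median of 248. Only replicates 2 and 9 exceeded the AT2 median, and 52 AT2 cells lay above the highest BASC. The summed levels were 91.4 and 323 CPM, a log2 ratio of −1.81, or 3.51-fold lower in BASCs. The ratio was −2.09 on plate 4 and −1.65 on plate 5, −2.29 to −1.58 when each BASC was left out, and −1.96 without the BASC with leukocyte transcripts. Of 18 genes of adherens junctions and their actin linkage, 2 lay 2-fold or more higher and 5 (27.8%, against 35.4% of all genes) lower, with a median of −0.28. Among the 8 with 100 CPM or more, 1 lay higher and 3 lower, with a median of −0.50. For all genes at that level 8.39% lay lower and the median was 0.08. Lmo7 is itself a member of the list and is counted among the lower genes at both levels.

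Lmo7 also belongs to the AT1 marker list, most of whose members were lower in BASCs. Of 15 measured, 11 (73.3%, against 35.4% of all genes) lay 2-fold or more lower and 0 higher, with a median log2 ratio of −1.81. Among the 7 with 100 CPM or more, 4 lay lower, against 8.39% of all genes. Both counts of lower genes include Lmo7, and the median of −1.81 is its own ratio. Much of this came from 4 cells labelled AT2 (replicates 21, 58, 65 and 82), whose AT1 list summed to 28582 to 60249 CPM, against 8937 CPM in the next AT2 cell and at most 5069 CPM in a BASC. They held 90.1% of the AT2 reads of Rtkn2, 90.4% of Igfbp2, 87.6% of the caveolin gene Cav1 and 82.3% of Pdpn, the podoplanin gene of AT1 membranes. Replicate 65 held 2656 CPM of Sftpc, the lowest of all 160 cells, and 19624 CPM of Ager, the receptor gene that marks AT1 cells. Without these 4 cells 4 of 11 measured members lay lower, against 34.9% of all genes in that setting, and 2 higher, against 17.2%. The members' shares were thus near those of all genes, with medians of −0.54 and −0.31, while Lmo7 kept a log2 ratio of −1.66.

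Single AT1 genes differed in how the BASCs stood to the AT2 median. Summed per cell, the list had a median of 2059 CPM in BASCs and 3424 CPM in AT2 cells, and 2 of 11 BASCs lay above the AT2 median. Sec14l3, a lipid-binding protein gene, had medians of 25.2 CPM in BASCs and 304 CPM in AT2 cells (log2 ratio −2.48, −1.95 without the 4 cells). Aqp5, a water channel gene of the alveolar surface, had medians of 153 and 482 CPM (−1.08, with −0.40 on plate 4 and −1.66 on plate 5). Ager had medians of 1067 and 1362 CPM, with 5 of 11 BASCs above the AT2 median. Igfbp2 and Spock2 had 0 reads in the BASCs, against 17.8 and 13.3 CPM in AT2 cells, at least 74.7-fold and 55.6-fold lower when 3 reads over the BASC pool are taken as the floor. Both rested largely on the 4 cells. Vegfa, the endothelial growth factor gene, was the member with the highest ratio, 77.4 against 42.2 CPM (0.86), with 10 of 11 BASCs above the AT2 median.

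**Figure D2:**
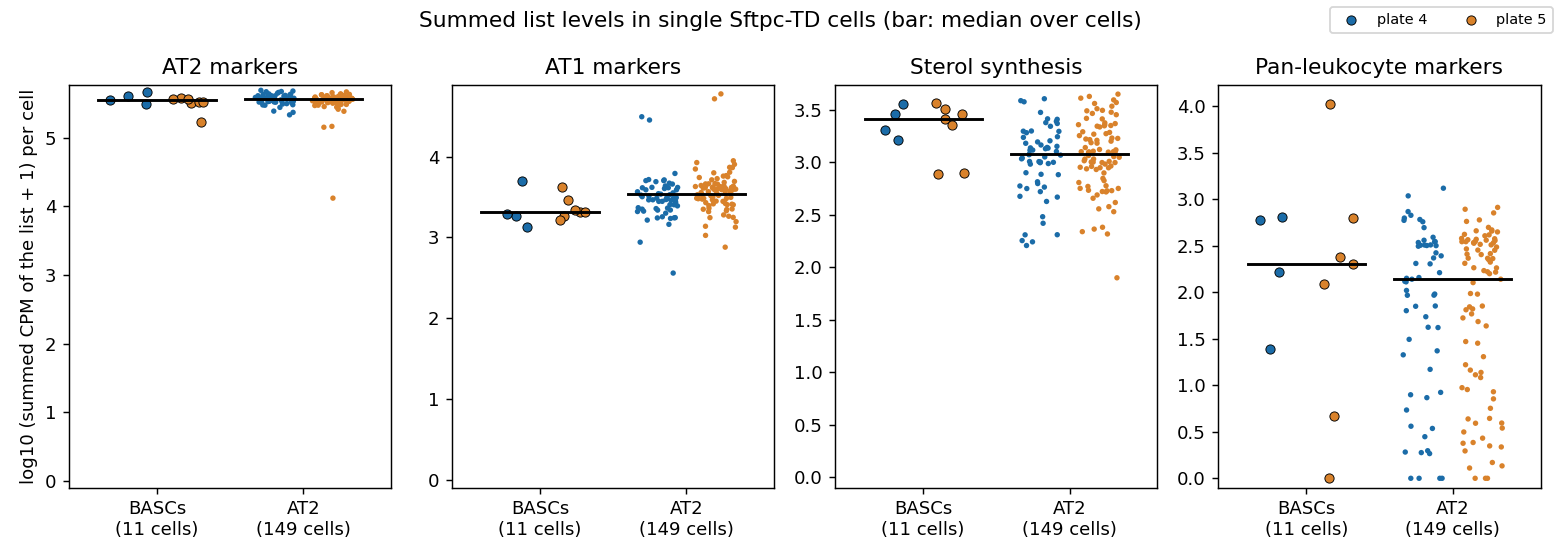
Summed CPM of the AT2, AT1, sterol synthesis and pan-leukocyte lists in each of the 11 BASCs (left in each panel) and each AT2 cell (right), as log10 of the sum with 1 added. Colours give the plate and bars the median over cells; 4 AT2 cells stand above the others for the AT1 list at 28582 CPM or more, and 1 BASC stands above all cells for the leukocyte list at 10624 CPM.

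Genes that mark the passage from AT2 to AT1 cells were mostly level. Of 12 measured, 2 (16.7%, against 16.6% of all genes) lay higher and 2 (16.7%, against 35.4%) lower. The stress-response regulator gene Nupr1 had medians of 433 CPM in BASCs and 173 CPM in AT2 cells (log2 ratio 1.19). Hbegf, a membrane-bound ligand of the EGF receptor, was lower, at 0 to 229 CPM in BASCs with a median of 3.37, and 0 to 2501 CPM in AT2 cells with a median of 131.6. Of the BASCs 1 exceeded the AT2 median and 53 AT2 cells exceeded the highest BASC, with summed levels of 49.7 and 247 CPM (−2.29, −3.64 on plate 4 and −1.73 on plate 5). Krt8, the keratin raised in transitional cells, was close to level at 405 and 329 CPM (0.30).

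The signalling lists had shares of lower genes near the 35.4% of all genes at 5 CPM or more. FGF signals support AT2 cells through Fgfr2, and of 13 measured pathway genes 1 lay higher and 5 (38.5%) lower. The median log2 ratio was −0.89, against −0.33 for all genes. Among the 5 with 100 CPM or more, 2 lay lower, against 8.39% of all genes at that level, and 0 higher. Summed per cell, the list had medians of 1351 CPM in BASCs and 2109 CPM in AT2 cells, with 2 of 11 BASCs above the AT2 median. Fgfr2 itself was level at 426 and 432 CPM, and Spry1, a feedback inhibitor, stood at 301 against 183 CPM (0.72). The ligand gene Fgf1 stood at 31.3 against 177 CPM (−2.46), with 3 of 11 BASCs above the AT2 median of 55.5 CPM. Dusp6, a phosphatase induced by the pathway, stood at 38.6 against 101.9 CPM (−1.38), yet 6 of 11 BASCs exceeded its AT2 median of 0.930 CPM. Of 16 measured Wnt pathway genes 2 lay higher and 6 (37.5%) lower (−0.49), with the feedback gene Nkd1 at 120.5 against 236 CPM and the ligand carrier Wls at 270 against 330 CPM. Of 7 measured Notch pathway genes 0 lay higher and 3 (42.9%) lower (−0.07), with the target Hes1 level at 78.3 and 82.4 CPM.

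The next 4 lists likewise had shares of lower genes near or below the 35.4% of all genes at 5 CPM or more. Of 14 measured lineage transcription factor genes 0 lay higher and 3 (21.4%) lower (median log2 ratio −0.60). Nkx2-1, which specifies lung epithelium, had medians of 187 CPM in BASCs and 209 CPM in AT2 cells, and Id2, an inhibitor of basic helix-loop-helix factors, 247 and 380 CPM. Of 13 measured genes of the unfolded protein response 0 lay higher and 5 (38.5%) lower (−0.54), and the per-cell sum exceeded the AT2 median in 1 of 11 BASCs. Dnajb9, a chaperone of the endoplasmic reticulum, had medians of 198 and 364 CPM, but its log2 ratio of −1.22 was −0.53 on plate 4. Of 18 immediate early and stress genes, which can report dissociation, 0 lay higher and 3 (16.7%) lower (−0.36). Jun, a subunit of the AP-1 factor, had medians of 676 CPM in BASCs and 1182 CPM in AT2 cells, with 1 of 11 BASCs above the AT2 median, whereas Fos, its partner, had summed levels of 2576 and 2392 CPM. Of 13 measured circadian clock genes 1 lay higher and 5 (38.5%) lower (−0.47). Among the 6 with 100 CPM or more, 3 lay lower, against 8.39% of all genes at that level. The repressor Nr1d1 stood at 78.4 against 161 CPM and Per3 at 64.04 against 160 CPM.

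The leukocyte and MHC class II lists turned on replicate 9. All 12 pan-leukocyte genes were measured, and 10 (83.3%, against 16.6% of all genes) lay 2-fold or more higher in BASCs, with a median log2 ratio of 4.40. Without that cell only 3 of the 12 were measured, 0 lay higher and 2 lower, and the median was −1.06. Of 8 measured MHC class II genes 2 lay higher and 1 lower (0.12), and without the cell the median was −0.99. The list of MHC class I and antigen processing moved little, from a median of 0.04 with the cell to −0.03 without it. Cd74, the invariant chain gene, ran from 160 to 12675 CPM in BASCs with a median of 1272, and from 79.2 to 7084 CPM in AT2 cells with a median of 2088. With the cell set aside, the median ratio stayed close for the AT2 list (−0.01), the club list (0.31) and the sterol list (0.32), and that of the AT1 list was −1.96. Endothelial transcripts summed to 2041 CPM in replicate 9 and 1597 CPM in replicate 1, and to no more than 13.4 CPM in the other BASCs. They were not confined to BASCs, since AT2 replicates 37 and 78 reached 5423 and 4928 CPM. The 95th percentile of AT2 cells was 229 CPM. In BASC replicate 1 the endothelial transcripts included 993 CPM of Tek, the angiopoietin receptor gene. Their part in the other differences was not tested.

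**Figure D3:**
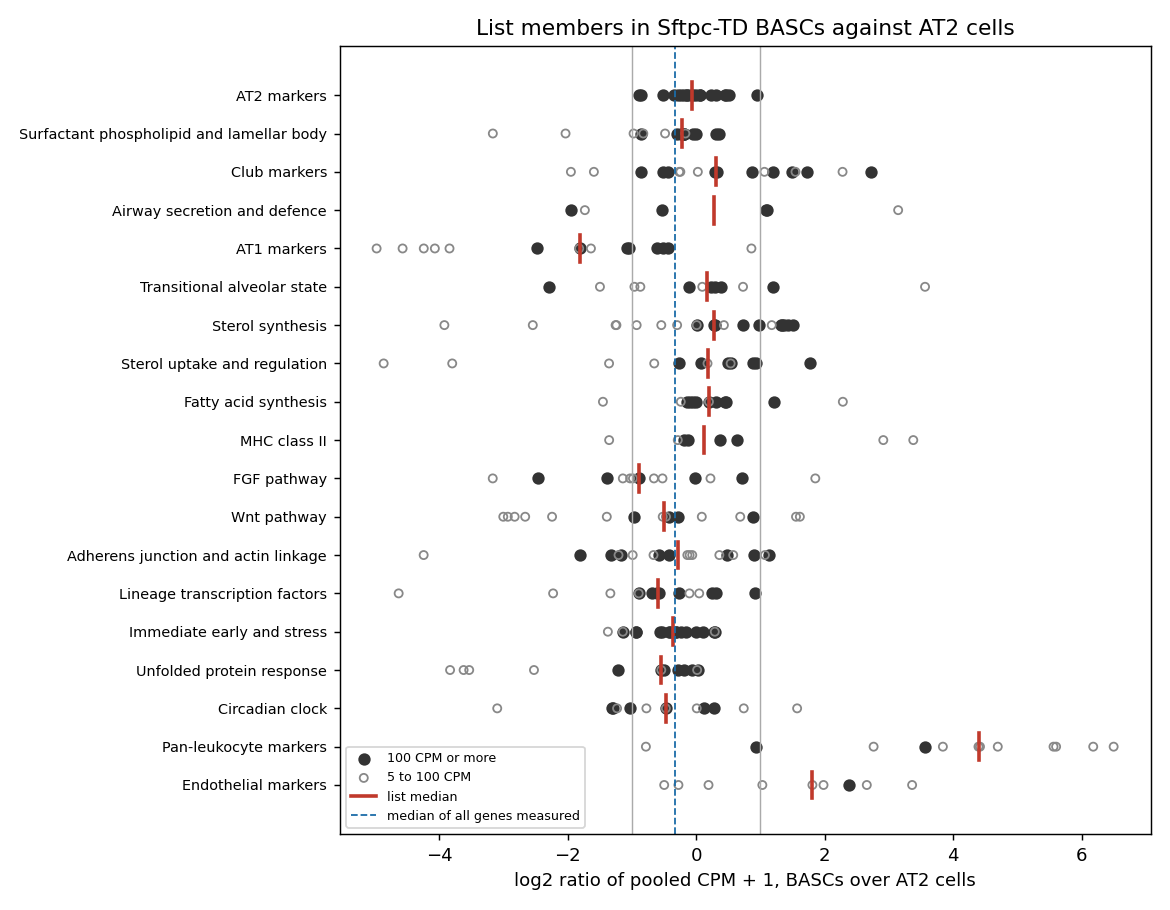
Log2 ratio of summed CPM with 1 added, BASCs over AT2 cells, for each measured member of 19 gene lists; filled points have 100 CPM or more in either group, open points 5 to 100 CPM, red bars are list medians and the dashed line is the median of all 10488 genes. AT2 markers stay within 2-fold, the abundant sterol synthesis genes lie to the right, the AT1 markers to the left, and the leukocyte median of 4.40 rests on 1 cell.

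The genes with the largest ratios were named by a rule on level, on detection and on a 2-fold difference in the same direction on both plates and without any 1 BASC. It was met by 54 genes on the higher and 323 on the lower side, and the first 12 of each are described. As they were ranked by the ratio out of 10488 genes in a pool of 11 cells, their sizes are extremes of the table and carry no test. Beside Scgb1a1 the higher genes were Cpsf2, Rptor, Nt5c, Tmem56, Cyth1, Rasa2, Rdh11, H2-Q7, Vars, Casz1 and Asb13, 4.90-fold to 10.9-fold higher, and without Scgb1a1 they share no list beyond the MHC class I gene H2-Q7. Cpsf2, a subunit of the mRNA cleavage and polyadenylation factor, stood at 130 against 11.02 CPM. It was unevenly spread, with 715, 331, 187 and 166 CPM in 4 BASCs and at most 18.2 CPM in the other 7. The scaffold of the mTORC1 kinase complex, encoded by Rptor, stood at 67.2 against 8.53 CPM, with 5 of 11 BASCs above the AT2 90th percentile of 15.5 CPM. Casz1, a zinc finger transcription factor gene, had a BASC median of 80.2 CPM and an AT2 median of 0, and 6 of 11 BASCs exceeded the AT2 90th percentile of 62.9 CPM. Tmem56 stood at 281 against 44.6 CPM and the retinol dehydrogenase gene Rdh11 at 124.3 against 22.3 CPM. Uneven spread was not particular to Cpsf2, as each of the 12 rested largely on few BASCs. The 3 BASCs with the most reads of a gene held 75.8% (Casz1) to 98.6% (Cyth1) of its BASC reads, against 50.9% for Sftpc.

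On the lower side stood Nrep, Cipc, Ndufv1, Ndnf, Camk1, Cdcp1, Slc10a6, Nsmaf, Apbb1, Cryab, Iqsec1 and Gata6. Each had 34.2 to 103.4 CPM in AT2 cells, a read in 50.3% to 71.1% of them, and 0.239 to 2.55 CPM in BASCs, 24.7-fold to 42.1-fold lower. Between 2 and 6 of the 11 BASCs had a read of them, and single BASCs reached up to 93.6 CPM, for Cryab. Gata6, a transcription factor gene of lung endoderm, reached at most 9.34 CPM in a BASC, and 69 AT2 cells lay above that. Cipc, a repressor that binds the clock protein CLOCK, reached at most 6.74 CPM, and 64 AT2 cells lay above it. For Ndufv1, a subunit of respiratory complex I, 74 AT2 cells and 9 BASCs had no read, so a lack of reads was common in both sub-types.

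Few abundant genes differed. Of 174 genes with 500 CPM or more in either group, 8 lay 2-fold or more higher in BASCs and 5 lower. The higher ones were Scgb1a1, Scd1, Nupr1, Lcn2, Itih4, Lrg1, Dmkn and Gm43085. Itih4, an inter-alpha-trypsin inhibitor chain, ran from 0 to 3430 CPM in BASCs with a median of 291, and from 0 to 2633 CPM in AT2 cells with a median of 52.9 (log2 ratio 1.56). Lrg1, a secreted leucine-rich glycoprotein, had medians of 1396 and 181 CPM, with 9 of 11 BASCs above the AT2 median (1.23). Dmkn, a secreted epithelial protein gene, had medians of 444 and 122.4 CPM (1.37). The lower ones were Sec14l3, Aqp5, Dnajb9, Timp3 and Lyz1. Timp3, an inhibitor of matrix metalloproteinases, stood at 310 against 713 CPM (−1.20, and −0.997 without the 4 AT2 cells rich in AT1 transcripts). For Lyz1, 451 against 1742 CPM, the AT2 pool was set by few cells, since the AT2 median was 4.303 CPM beside a BASC median of 6.12 CPM.

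The same genes were then read in BASCs of the other lines, whose levels rest on other cells. No plate held both BASCs-Tracer and Sftpc-TD, so line and plate cannot be told apart there, whereas 10 Scgb1a1-TD BASCs shared plate 4. Scgb1a1 stood at 8464 CPM in Sftpc-TD BASCs, 3518 CPM in Scgb1a1-TD BASCs and 13416 CPM in BASCs-Tracer BASCs, against 3766 CPM in BASCs-Tracer AT2 cells and 1285 CPM in Sftpc-TD AT2 cells. Lmo7 was low in BASCs of both single-recombinase lines, at 91.4 CPM in Sftpc-TD and 76.1 CPM in Scgb1a1-TD BASCs (58.4 CPM for those on plate 4). In BASCs-Tracer BASCs it stood at 311 CPM, against 408 CPM in BASCs-Tracer AT2 cells and 323 CPM in Sftpc-TD AT2 cells. Hbegf was also low in BASCs of the single-recombinase lines, with 49.7, 57.5 and 321 CPM in BASCs of Sftpc-TD, Scgb1a1-TD and BASCs-Tracer, against 420 CPM in BASCs-Tracer AT2 cells and 247 CPM in Sftpc-TD AT2 cells. Scd1 was likewise higher in BASCs of Sftpc-TD (15763 CPM) and Scgb1a1-TD (14214 CPM) than in those of BASCs-Tracer (7551 CPM), against 6858 CPM in BASCs-Tracer AT2 cells and 6799 CPM in Sftpc-TD AT2 cells.

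Sqle stood at 274, 174 and 83.6 CPM in BASCs of Sftpc-TD, Scgb1a1-TD and BASCs-Tracer, against 9.21 CPM in the 6 BASCs-Tracer AT2 cells and 95.3 CPM in Sftpc-TD AT2 cells. Hmgcs1 stood at 408, 277 and 201 CPM in the same BASCs, against 154 and 161 CPM in the same AT2 cells. The genes with the largest ratios were read within BASCs-Tracer beside all genes, of which 41% lay 2-fold or more higher in BASCs and 21.4% lower than in the pool of 6 AT2 cells. Of the 12 higher ones, 7 also lay 2-fold or more higher there and 1 lay lower. Of the 12 lower ones, 2 lay lower there and 6 higher. The 12 lower genes stood at 16.1 to 75.8 CPM in BASCs-Tracer BASCs and 21.1 to 66.3 CPM in Scgb1a1-TD BASCs. They were ranked on their low level in Sftpc-TD BASCs, so higher levels in other pools follow from the choice and nothing is read from them.

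**Figure D4:**
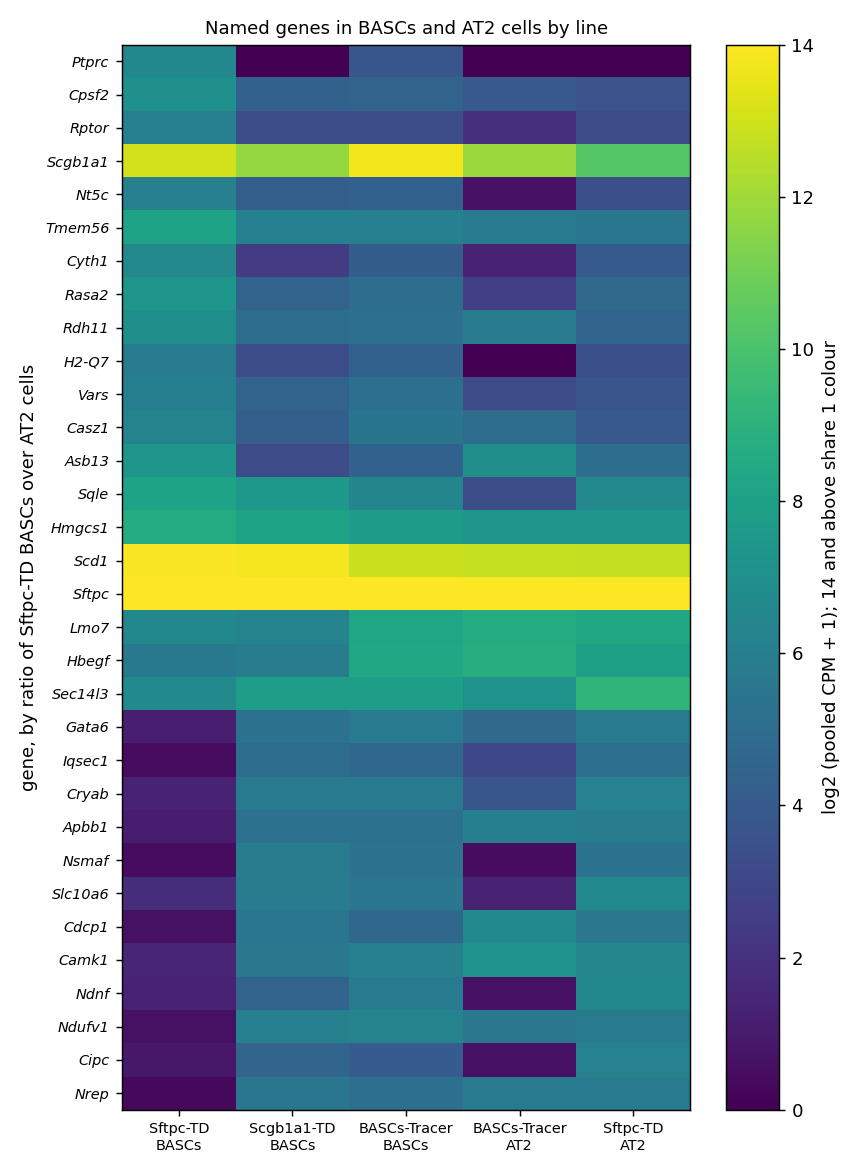
Summed CPM with 1 added, as log2, for 32 named genes (down the page, from the highest to the lowest ratio of Sftpc-TD BASCs over AT2 cells) in BASCs of Sftpc-TD, Scgb1a1-TD and BASCs-Tracer and in AT2 cells of BASCs-Tracer and Sftpc-TD. The 12 genes at the foot were chosen for their low level in the first column, and Lmo7 and Hbegf are lower in BASCs of Sftpc-TD and Scgb1a1-TD than in those of BASCs-Tracer.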

How the data were processed

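The authors deposited a table of read counts per gene and cell, which holds raw, unscaled values without molecular identifiers. Per the labels' protocols, lungs were dissociated with elastase, dispase and collagenase, single sorted cells were lysed, and whole-transcript cDNA was amplified, with Nextera XT for the libraries. The submitters' processing notes name as tools HISAT2 and HTSeq and as build GRCm38, with no version. The header of the table has no name over the gene identifiers, so each name was read 1 column to its right, and all 480 columns matched a sample (0 did not). Symbols and positions came from GENCODE M21 (GRCm38) and matched 53274 of 53379 identifiers.

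Reads were summed over the cells of a sub-type and given as CPM of all gene-assigned reads, so deeper cells weigh more. Genes counted as measured at 5 CPM or more in either group and as higher or lower past 2-fold. Poisson and Clopper-Pearson intervals are at 95%. No test was run, since each sub-type is 1 sample, and doublets were not called. Close gene copies (Lyz1 and Lyz2, the H2 and Cyp2 families) may exchange reads. A few list members are counted in their lists but not reported singly here. The members and the 36 gene lists were chosen with earlier results of these data known.

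Always named were Scgb1a1, Sqle, Lmo7, Sftpc and Ptprc. The 12 largest ratios per direction were named among genes with 20 CPM or more and a read in at least 50% of cells of the higher group, and 2-fold the same way in the whole pool, on each plate and without any 1 BASC. Mitochondrial, ribosomal protein, clone-named and pseudogenes were left out of that ranking. Of each list, up to 4 members of highest level and those that met the same conditions were named. Cyp2f2, Retnla, Muc5ac, Insig2, Srebf2, Idi1, Lss, Vegfa, the AT1 genes of the 4 cells, further list members and the genes over 500 CPM were chosen after their values were seen. Alternatives were median-of-ratios scaling, the mean or median over cells, 10 CPM added, totals without the 10 largest and the mitochondrial genes, other filters, cells with 100000 reads and 2000 genes, single plates and leaving out cells. The steps were tested on simulated data. Python 3.11.15, numpy 2.4.6, pandas 2.3.3, scipy 1.17.1 and matplotlib 3.10.9 were used.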

Additional observations from a re-analysis of the deposited data

How the results depend on the processing

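Numbers of genes past 2-fold depended on how the pools were made. The 1737 higher and 3708 lower of 10488 measured genes became 883 and 382 of 2470 with the median over cells, where higher genes outnumbered lower ones. They were 996 and 1851 of 10488 with 10 CPM added, and 1105 and 1545 of 6452 at 20 CPM or more. A setting added after the data were seen, 100 CPM or more, gave 12.6% and 8.39% of the measured genes, against 16.6% and 35.4%. Without a filter 6182 of 21887 genes lay lower. The median of all genes was −0.06 with median-of-ratios scaling and 0.39 with the median over cells, against −0.33, so ratios near 0 have no firm sign. With the median over cells, list medians were 1.34 for 12 club, −0.45 for 7 AT1 and 2.43 for 10 sterol synthesis genes. The pan-leukocyte value of 2.09 rested on 1 gene in that setting. The log2 ratio of Nsdhl then turned to 0.28, of Lyz1 to 0.43 and of Dusp6 to 2.24. With the mean over cells the leukocyte median was 5.31 and Aldh1a1 turned from −1.95 to 0.39. The leukocyte median was 5.14 on totals without mitochondrial and the 10 largest genes, 1.72 with 10 CPM added and 5.11 on plate 5. At 100 CPM it was 2.25, over 2 genes.

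Without the BASC with over 1000 CPM of Ptprc, the leukocyte median was −1.06, Ptprc −0.030, Srgn −3.14, Chil3 −0.10, Ctss −0.10 and Vim −0.40. On plate 4 these were −1.81, −0.022, −3.53, −0.80, −0.065 and −1.04, the myeloid median was −3.13, Tyrobp −0.044 and Bmi1 1.43. On plate 5 Tek was −3.95, Irf9 −4.09 and the AT1 median −2.49. Leaving out each BASC in turn gave −1.06 to 4.67 for the leukocyte median, −0.030 to 6.77 for Ptprc, −3.14 to 3.84 for Srgn, −0.10 to 8.43 for Chil3, −0.10 to 6.81 for Ctss, −0.40 to 4.70 for Vim, −3.86 to 2.65 for Tek and −4.07 to 1.41 for Irf9. Replicate 1 decided Tek and Irf9 and replicate 9 the others. The club median ran from −0.21 to 0.54 and the sterol median from 0.01 to 0.56. At 100 CPM the sterol median was 1.15 and the AT1 median −1.04. Without the 4 AT2 cells the AT1 median was −0.54. The share with Scgb1a1 was 90.9% of BASCs and 72.5% of AT2 cells without thinning, 90.9% and 72.97% at 10 reads, and 0.676% of AT2 cells at 1000 reads. The cause of these moves was not tested, except where cells were left out. With 11 BASCs, genes read in few cells are the least certain.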

Other observations

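Genes outside the comparisons above gave the following values. Of 9 measured progenitor-associated genes 3 (33.3%, against 16.6% of all genes) lay 2-fold or more higher in BASCs and 1 (11.1%, against 35.4%) lower. Without the BASC with leukocyte transcripts, 1 of 8 measured lay higher and 2 lower, and the median log2 ratio went from 0.61 to −0.43. Cd24a, a mucin-like surface protein gene, stood at 68.2 against 18.3 CPM. It rested on few cells, with 530 and 448 CPM in the highest BASCs and no read in 7 of 11. Of 5 measured cell cycle genes 2 lay higher and 0 lower, all below 100 CPM. Of 13 measured xenobiotic metabolism genes 3 lay higher and 4 lower, and of 10 measured interferon response genes 2 higher and 5 lower. Of 12 pan-epithelial genes 0 lay higher and 1 lower. Fgfr1, a receptor more typical of mesenchyme, stood at 59.99 CPM in BASCs, with no read in 7 of 11, and at 15.9 CPM in AT2 cells, with a read in 20.8% of them. Xist was read in 9 of 11 BASCs and all but 10 AT2 cells, and Y-linked genes held 0 reads in the BASCs and 19 reads in the AT2 cells.

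The 4 AT2-labelled cells with the most AT1 transcripts lay on both plates, 2 on each, with 594018 to 2106315 reads. Beside their AT1 sums, 3 of them kept 87747 to 112517 CPM of Sftpc, and replicate 65 held 13186 CPM of the AT2 list, the lowest of all 160 cells. Among BASCs, the 3 cells with the most Scgb1a1 (replicates 1, 5 and 7) had Scd1 at 3442, 12694 and 695 CPM and Lmo7 at 7.57, 93.6 and 52.6 CPM.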
